A study of Mus musculus with 6 samples.

Results

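Kinesins are motor proteins that walk along microtubules, mostly away from the cell centre, and each family member carries its own cargo or acts on its own set of microtubules. Some build and maintain cilia and the sperm tail, some move chromosomes and organise the spindle in mitosis and meiosis, and some carry vesicles and organelles. The testis needs all of these activities, because germ cells divide, pass through meiosis and then grow a flagellum, while Sertoli, Leydig and other somatic cells surround them. The genes described here are all those on the array whose name is Kif or Kifc followed by a number and at most 1 letter. They number 42 of 34844 named genes, measured by 66 of 55681 probes, and all 42 were among the 28917 genes tested.

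Messenger RNA was measured in whole testes of male C57BL/6 mice at 5 months of age. AROM+ mice carry a transgene for extra aromatase, which makes oestrogens from androgens, and WT mice do not. There were 3 AROM+ and 3 WT testes, each labelled as a single testis and hybridised to 1 one-colour Agilent array. The promoter that drives the transgene is not given in the sources used here, and p-values set the group difference against the spread between these testes. Levels are log2 intensities after subtraction of each array's 75th percentile, and differences are AROM+ minus WT on the log2 scale, each with a standard error (SE) that limma estimated (n = 3 arrays in each group). A gene is represented by its probe of highest mean intensity, and it was called when limma's Benjamini-Hochberg adjusted p over all genes was under 0.05. Probes bind with different strength, so levels are compared between arrays and never between genes.

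On each array 76.6% to 80.6% of spots were well above background, and no spot was saturated. AROM+ arrays lay in one row of the slide and WT arrays in the other, so slide position and genotype cannot be told apart. The mouse aromatase gene Cyp19a1 was not called (−0.30 ± 0.18, limma adjusted p = 0.217), and its probe may not detect the transgene. Across all genes the median difference was −0.19, with 14.5% called higher and 31.4% called lower in AROM+. With quantile normalization of the arrays the median was −0.09, and the split was 4699 genes higher and 6185 lower, against 4200 higher and 9068 lower in the analysis reported here. Without AROM+ replicates 1, 2 and 3 in turn, 6499, 7354 and 7691 of all genes were lower and 3773, 3713 and 3632 higher. Without WT replicates 1, 2 and 3 in turn, 5458, 8005 and 4967 were lower and 2801, 3964 and 2752 higher. Spike-in scaling gave 2725 higher and 6479 lower. List counts under an alternative stand beside these numbers.

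Of the 42 kinesin genes, 6 were called higher (14.3%, beside 14.5% of all genes) and 22 were called lower (52.4%, beside 31.4% of all genes), so 28 of 42 were called, beside 45.9% of all genes. Their median difference was −0.37, and the 41 genes well above background on all 6 arrays ranged from −0.89 to 1.04. Kif12, the other gene, was near background in AROM+ testes. All 6 higher genes were cargo carriers, and 18 of the 22 lower genes were motors of cilia, the sperm tail, the spindle or cytokinesis. AROM+ and WT values were fully separated in 31 of the 42 genes (73.8%, beside 59% of all genes). Without WT replicate 3 the number of kinesin genes called lower was 14, and with quantile normalization it was also 14, while the number over all genes was 4967 without that array and 6185 with quantile normalization. In a whole organ, fewer cells of a type and less RNA per cell cannot be told apart.

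**Figure D1:**
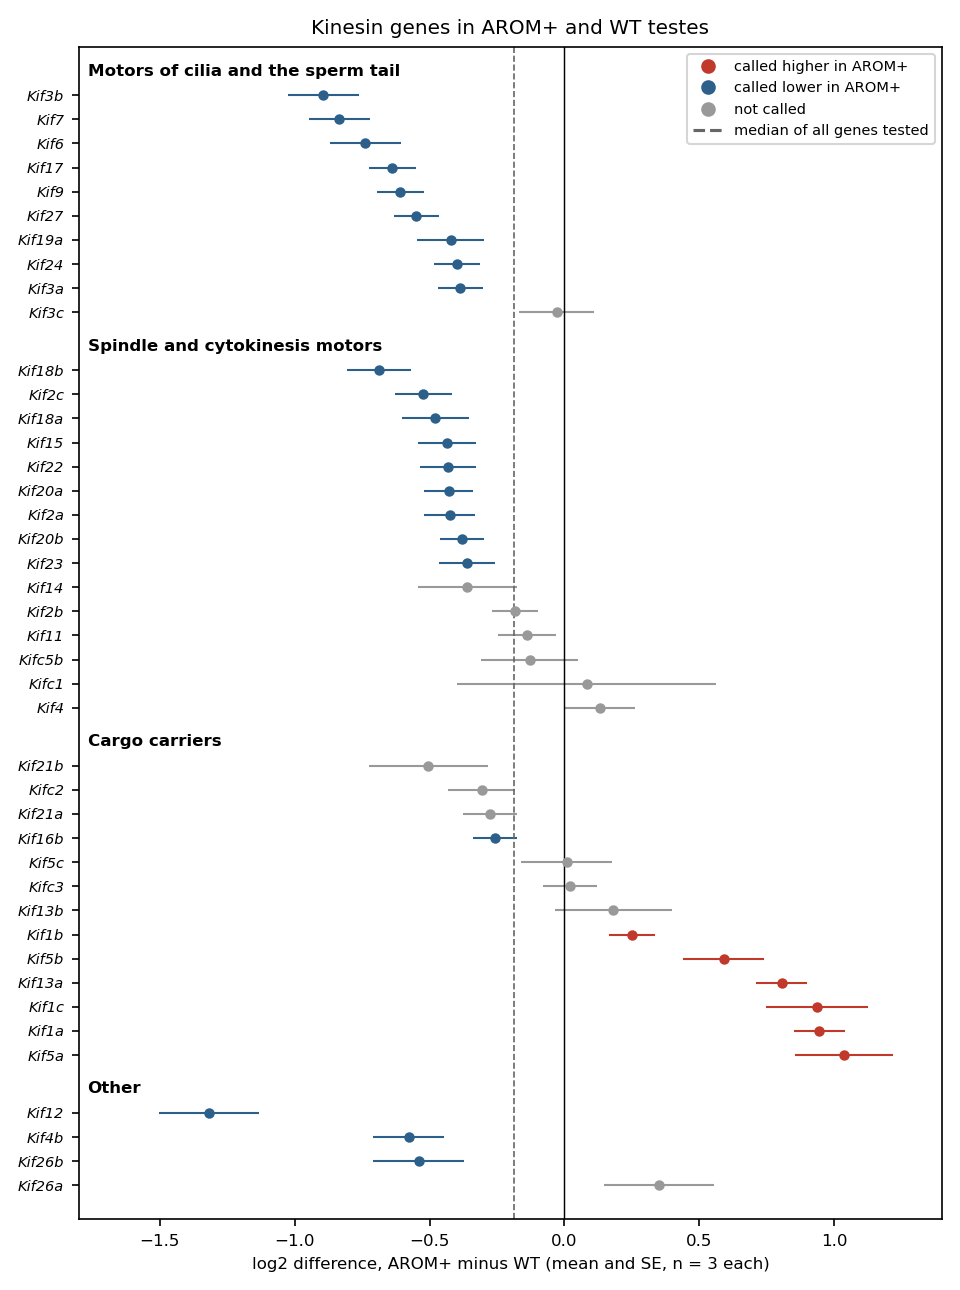
Log2 difference between AROM+ and WT testes (horizontal axis; mean and SE from limma, n = 3 each) for the 42 kinesin genes, grouped by role. Red points were called higher, blue points lower and grey points were not called; the dashed line marks the median of all genes at −0.19. The 6 red points all belong to cargo carriers, and 9 of the 10 motors of cilia and the sperm tail are blue (beside 31.4% of all genes).

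Motors of cilia and the sperm tail were lower in AROM+ testes. Of 10 such genes 9 were called lower (beside 31.4% of all genes) and 0 higher (beside 14.5%), with a median of −0.58. The heterotrimeric kinesin-2 motor, which carries material from the base of a cilium to its tip, is built from Kif3a, Kif3b and an accessory protein. Kif3b read 0.14, 0.16 and −0.12 in AROM+ testes, against 1.12, 0.98 and 0.76 in WT testes. Every AROM+ array lay below every WT array, and the difference was −0.89 ± 0.13 (0.54 of the WT level, limma adjusted p = 0.00497). A second Kif3b probe gave −0.88 ± 0.16 and was called as well.

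The partner subunit was called lower on its brightest probe. Kif3a averaged 1.60 ± 0.03 in AROM+ and 1.99 ± 0.06 in WT testes (SD, n = 3 each), a difference of −0.39 ± 0.08. Its second probe was not called, at 0.14 ± 0.10, and Kif3a missed the threshold without WT replicate 1 (−0.36, adjusted p = 0.0510) and with the mean of its probes (−0.12, adjusted p = 0.257). It also missed the threshold with quantile normalization (−0.22, adjusted p = 0.0668) and with spike-in scaling (−0.44, adjusted p = 0.0599). The log2 ratio of Kif3b to Kif3a within an array was −1.46, −1.47 and −1.70 in AROM+ testes, against −0.93, −0.95 and −1.24 in WT testes. This ratio does not depend on how arrays are scaled; it was picked after the values were seen and carries no test. Kif3c, which can take the place of Kif3b beside Kif3a, did not pass the test (−0.03 ± 0.14, 95% interval −0.36 to 0.30), and its groups overlapped.

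Kif17 forms a kinesin-2 motor of its own and has a known role in male germ cells, where it moves a transcriptional coactivator of spermatids. It read 2.44, 2.51 and 2.45 in AROM+ testes, against 3.19, 3.10 and 3.01 in WT testes. The groups were separated, by −0.64 ± 0.09 (limma adjusted p = 0.00455). A second Kif17 probe fell by 0.89 on the log2 scale and a dimmer one, at −0.62 ± 0.34, did not pass the test.

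The kinesin-9 pair Kif6 and Kif9, motors found in motile cilia and flagella, fell on every probe that was above background. Kif6 read 1.01, 0.75 and 0.59 in AROM+ testes, against 1.53, 1.42 and 1.61 in WT testes (difference −0.74 ± 0.13, limma adjusted p = 0.00724). Kif9, which is needed for normal sperm movement in mice, read 2.58, 2.65 and 2.55 in AROM+ testes, against 3.18, 3.15 and 3.27 in WT testes. Its difference was −0.61 ± 0.09 (limma adjusted p = 0.00469), and no AROM+ array of either gene reached the lowest WT array. The 3 probes of Kif6 lay between −0.79 and −0.74, although 2 of them share sequence, and the 4 probes of Kif9 between −0.67 and −0.50.

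Of the kinesin-4 members tied to cilia, Kif7 regulates Hedgehog signalling at the cilium tip. It read −2.71, −2.70 and −2.74 in AROM+ testes, against −2.05, −1.69 and −1.92 in WT testes (difference −0.84 ± 0.11, limma adjusted p = 0.00439). The AROM+ arrays lay close together and below all WT arrays. A second Kif7 probe, at another place in the gene, was not called (−0.04 ± 0.12). Kif27, a close relative of Kif7, averaged 2.44 ± 0.02 in AROM+ and 2.99 ± 0.06 in WT testes (SD, n = 3 each), a difference of −0.55 ± 0.08.

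The remaining members of this group limit or prevent cilium growth. Kif24, a kinesin-13 that acts at the mother centriole, was lower by a small amount (−0.40 ± 0.09, limma adjusted p = 0.0121). Kif19a, a kinesin-8 that shortens microtubules at the tips of cilia, was also called lower (−0.42 ± 0.13). Its call was lost without any 1 of AROM+ replicates 1, 2 and 3 and WT replicates 2 and 3, with values of −0.39, −0.45, −0.43, −0.40 and −0.33 and adjusted p of 0.0615 to 0.0974.

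**Figure D2:**
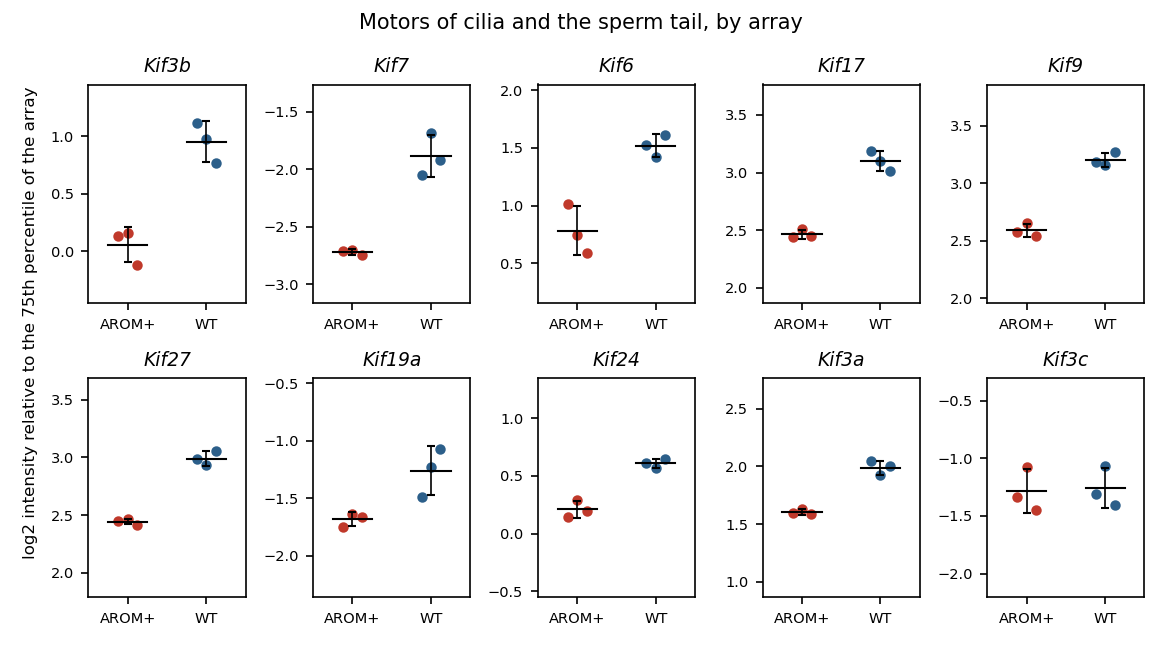
Log2 intensity above the 75th percentile of its array (vertical axis) for the 10 motors of cilia and the sperm tail in each AROM+ (red) and WT (blue) testis; bars are the mean and SD of 3 arrays. In 9 panels all red points lie below all blue points, as in 41.1% of all genes, and in Kif3c they overlap.

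Motors of the spindle and of cytokinesis were also lower or not called. Of 15 such genes 9 were called lower (beside 31.4% of all genes) and 0 higher (beside 14.5%), with a median of −0.38. The number lower was 5 without WT replicate 1 or WT replicate 3, and 4 with quantile normalization. Over all 28917 genes the numbers lower in these settings were 5458, 4967 and 6185, against 9068 in the analysis reported here. Kif18b, a kinesin-8 that acts on astral microtubules, read −1.30, −1.12 and −1.32 in AROM+ testes, against −0.57, −0.73 and −0.39 in WT testes. It had the largest fall of this group at −0.69 ± 0.12 (limma adjusted p = 0.00689), with no overlap between the groups. Kif18a, which brings chromosomes to the middle of the spindle, was at −0.48 ± 0.12, and it missed the threshold without WT replicate 1 (−0.43, adjusted p = 0.0715) or WT replicate 2 (−0.46, adjusted p = 0.0533).

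The kinesin-13 motors take microtubules apart rather than walk along them. Kif2c, which corrects faulty attachments at the centromere, fell by 0.52 ± 0.11 on the log2 scale and Kif2a by 0.43 ± 0.09, and every one of their 5 probes was called lower. With quantile normalization neither passed the test (adjusted p = 0.0519 for Kif2c and 0.103 for Kif2a). Kif2b read 3.53, 3.56 and 3.61 in AROM+ testes, against 3.78, 3.66 and 3.81 in WT testes. Its groups did not overlap, but the difference of −0.18 ± 0.09 was not called (limma adjusted p = 0.123, 95% interval −0.39 to 0.02), while with normexp background correction it was (−0.30, adjusted p = 0.0386), and with quantile normalization the difference was 0.03.

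The 3 kinesin-6 motors of cell cleavage were called lower, but with quantile normalization Kif20a (−0.24, adjusted p = 0.0749) and Kif23 (−0.19, adjusted p = 0.161) were not. Kif20a, which moves the chromosomal passenger complex to the spindle midzone, was at −0.43 ± 0.09, Kif20b at −0.38 ± 0.08 and Kif23, the motor subunit of centralspindlin, at −0.36 ± 0.10. Kif23 lost its call without AROM+ replicate 1 (−0.28), WT replicate 1 (−0.37) or WT replicate 3 (−0.32), and Kif20b without WT replicate 3 (−0.36, adjusted p = 0.0501). Kif22, a motor that binds chromosome arms, was at −0.43 ± 0.10 and lost its call without WT replicate 1 (−0.43, adjusted p = 0.0572) or WT replicate 3 (−0.43, adjusted p = 0.0551). Kif15, which helps to keep the spindle bipolar, was at −0.43 ± 0.11 and was not called without AROM+ replicate 1 (−0.40), WT replicate 1 (−0.43) or WT replicate 3 (−0.38).

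Of the spindle genes, 6 were not called. Kif11, the motor that pushes spindle poles apart, was at −0.14 ± 0.11 (95% interval −0.40 to 0.12), and Kif14, a motor of cytokinesis, at −0.36 ± 0.18 (95% interval −0.80 to 0.08). Kif4, a chromosome-bound motor, was at 0.13 ± 0.13 (95% interval −0.19 to 0.45). The minus-end motor Kifc1 varied so much within groups, from −2.78 to −1.81 in AROM+ and from −3.49 to −1.65 in WT testes, that its interval of −1.06 to 1.23 allows a change of more than 1 log2 unit either way. Kifc5b, a close paralog of Kifc1 whose probe may share signal with it, was at −0.13 ± 0.18.

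Many genes of the late cell cycle carry the cell cycle homology region, the sequence TTTGAA, near their start. The RefSeq promoter table (GRCm38.p6, 250 bases before to 50 after a gene's start) held 33 of the 42 kinesin genes. TTTGAA stood on either strand in 11 of 14 spindle motors (78.6%), in 1 of 9 motors of cilia and the sperm tail and in 1 of 7 cargo carriers, beside 20.2% of 27025 genes in the table. Among the spindle motors it was present in 6 of 8 that were called lower and in 5 of 6 that were not called. The windows of Kif18b (chr11:102925075-102925374, minus strand), the spindle motor with the largest fall, and Kif4 (chrX:100625815-100626114, plus strand), the highest that was not called, show the same element near the start of both. TTTGAA is in capitals, and it begins 3 bases after the start in Kif18b and 19 bases after it in Kif4. In Kif2c, also called lower and not shown, TTTGAA stood on the other strand, at −103 from the start.
Kif18b: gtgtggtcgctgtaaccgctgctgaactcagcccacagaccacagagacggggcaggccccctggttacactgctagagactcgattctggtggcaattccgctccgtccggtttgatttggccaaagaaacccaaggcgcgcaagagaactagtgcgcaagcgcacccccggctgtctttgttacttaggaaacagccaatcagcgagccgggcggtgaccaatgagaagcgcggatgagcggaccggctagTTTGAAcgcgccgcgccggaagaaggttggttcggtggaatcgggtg
Kif4: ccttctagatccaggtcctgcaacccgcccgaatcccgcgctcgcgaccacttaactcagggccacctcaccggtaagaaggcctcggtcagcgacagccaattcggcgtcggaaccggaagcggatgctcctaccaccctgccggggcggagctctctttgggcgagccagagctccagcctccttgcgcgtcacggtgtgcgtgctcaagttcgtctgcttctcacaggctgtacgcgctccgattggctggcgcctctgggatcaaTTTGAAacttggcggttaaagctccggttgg

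The CCAAT box, searched as CCAAT on either strand, stood in 9 of 14 spindle motors (64.3%), in 5 of 9 motors of cilia and the sperm tail and in 1 of 7 cargo carriers, beside 41.1% of all genes. Among the spindle motors it was present in 3 of 8 that were called lower and in 6 of 6 that were not called. The half-site of the cAMP response element, TGACG, stood in 8 of 14, 4 of 9 and 4 of 7 of these genes, beside 23.0% of all genes, and the E2F sequence GCGGGAA in 1, 1 and 0, beside 5.29%. Among the spindle motors TGACG stood in 3 of 8 called lower and 5 of 6 not called, and GCGGGAA in 1 and 0. None of these 4 motifs contains another. A match describes the letters of the window and not a site in use.

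All kinesin genes that were called higher were cargo carriers of the kinesin-1 and kinesin-3 families. Of 13 cargo carriers 6 were called higher (beside 14.5% of all genes), 1 was called lower (beside 31.4%) and 6 were not called. Their median difference was 0.18. AROM+ and WT values were fully separated in 9 of the 13, with AROM+ above WT in 6 (beside 17.9% of all genes) and below WT in 3, Kif16b, Kif21a and Kifc2 (beside 41.1% of all genes). With all probes of a gene averaged 3 were higher, and without WT replicate 2 or WT replicate 3 the number was 4. Over all genes these settings gave 4213, 3964 and 2752 higher, against 4200 in the analysis reported here. Kif5a, Kif5b and Kif5c are the heavy chains of kinesin-1, the general carrier of organelles and vesicles. Kif5a read −0.42, −0.46 and −0.98 in AROM+ testes, against −1.54, −1.89 and −1.54 in WT testes. All AROM+ arrays lay above all WT arrays, and the difference of 1.04 ± 0.18 (2.05-fold, limma adjusted p = 0.00719) made Kif5a the 1 kinesin gene that was called and at least 2-fold higher, as were 5.01% of all genes. Its second probe was at 0.38 ± 0.22 and did not pass the test.

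Kif5b read −1.03, −1.56 and −1.43 in AROM+ testes, against −1.82, −1.99 and −1.98 in WT testes. The groups did not overlap (0.59 ± 0.15, 1.51-fold, limma adjusted p = 0.0196), but it missed the threshold without WT replicate 2 (0.56, adjusted p = 0.0523) or WT replicate 3 (0.57, adjusted p = 0.0652), and a dimmer Kif5b probe was at 0.00 ± 0.14. Kif5c did not pass the test (0.01 ± 0.17, 95% interval −0.39 to 0.41), and its groups overlapped. The log2 ratio of Kif5a to Kif5c within an array was 0.01, 0.09 and 0.06 in AROM+ testes, against −0.93, −1.09 and −0.91 in WT testes. This ratio was also picked after the values were seen and carries no test.

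In the kinesin-3 family 4 of 7 genes were higher and 1 lower, beside 14.5% and 31.4% of all genes. Kif13a, a carrier of recycling endosomes, read −1.54, −1.50 and −1.67 in AROM+ testes, against −2.46, −2.28 and −2.39 in WT testes. The spread within each group was small beside the difference of 0.81 ± 0.10 (1.75-fold, limma adjusted p = 0.00363). Kif1c, which takes part in transport between the Golgi and the endoplasmic reticulum, read 0.20, −0.06 and 0.01 in AROM+ testes, against −0.88, −0.53 and −1.26 in WT testes. Its groups did not overlap (0.94 ± 0.19, 1.91-fold, limma adjusted p = 0.0101), but its 2 other probes were not called, at 0.37 ± 0.38 and 0.12 ± 0.10, and the mean of the 3 missed the threshold (0.48, adjusted p = 0.0638).

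Kif1b, a carrier of mitochondria and vesicles, read 1.15, 1.16 and 1.13 in AROM+ testes, against 0.90, 0.97 and 0.83 in WT testes. The groups did not overlap, and the difference of 0.25 ± 0.08 just passed the threshold (limma adjusted p = 0.0466). It missed the threshold when any 1 array was left out (0.22 to 0.29, adjusted p = 0.0537 to 0.145), while a second Kif1b probe was called at 0.72 ± 0.12. Kif16b, which moves early endosomes, was the 1 cargo carrier called lower (−0.26 ± 0.08, limma adjusted p = 0.0386), and it too missed the threshold when any 1 array was left out (−0.28 to −0.24, adjusted p = 0.0711 to 0.119).

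Kif1a, a carrier of synaptic and dense-core vesicles, was the 1 kinesin gene whose probes were called in opposite directions. Its brightest probe read −1.25, −1.26 and −1.21 in AROM+ testes, against −2.24, −2.05 and −2.26 in WT testes (0.95 ± 0.09, 1.93-fold, limma adjusted p = 0.00284). The other probe read −2.26, −2.15 and −2.63 in AROM+ testes, against −1.76, −1.73 and −1.88 in WT testes (−0.56 ± 0.14, limma adjusted p = 0.0205). Neither probe's groups overlapped, so the log2 ratio of the first to the second was 0.89 to 1.42 in AROM+ testes and −0.49 to −0.32 in WT testes. The mean of both probes was not called (0.19, adjusted p = 0.147). The probes start 2897 bases apart on the minus strand of chromosome 1 (NCBI37/mm9), the first at chr1:94912112-94912171 and the second at chr1:94915009-94915068, and whether they report different transcripts was not tested. The first 30 of their 60 bases are shown so that each can be placed on a transcript.
Kif1a brightest probe: tgtgtcataaccacctgacgtaatgactag
Kif1a other probe: tctctcgaaggagatctgcgcagatgcggg

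The other cargo carriers did not pass the test. Kif21a read 1.52, 1.63 and 1.74 in AROM+ testes, against 1.96, 1.80 and 1.95 in WT testes. Its groups did not overlap, but the difference of −0.28 ± 0.10 fell short of the threshold (limma adjusted p = 0.0587). It was called lower with arrays centred on the median of tested genes (−0.31, adjusted p = 0.0497) and with genes named through RefSeq (adjusted p = 0.0492). Kif21b was at −0.50 ± 0.22 and was called lower only without WT replicate 2 (−0.73, adjusted p = 0.0200). Kifc2, also without overlap, was at −0.31 ± 0.13 (limma adjusted p = 0.0836) and at −0.19 with normexp background correction, Kif13b at 0.18 ± 0.22 and Kifc3 at 0.02 ± 0.10.

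**Figure D3:**
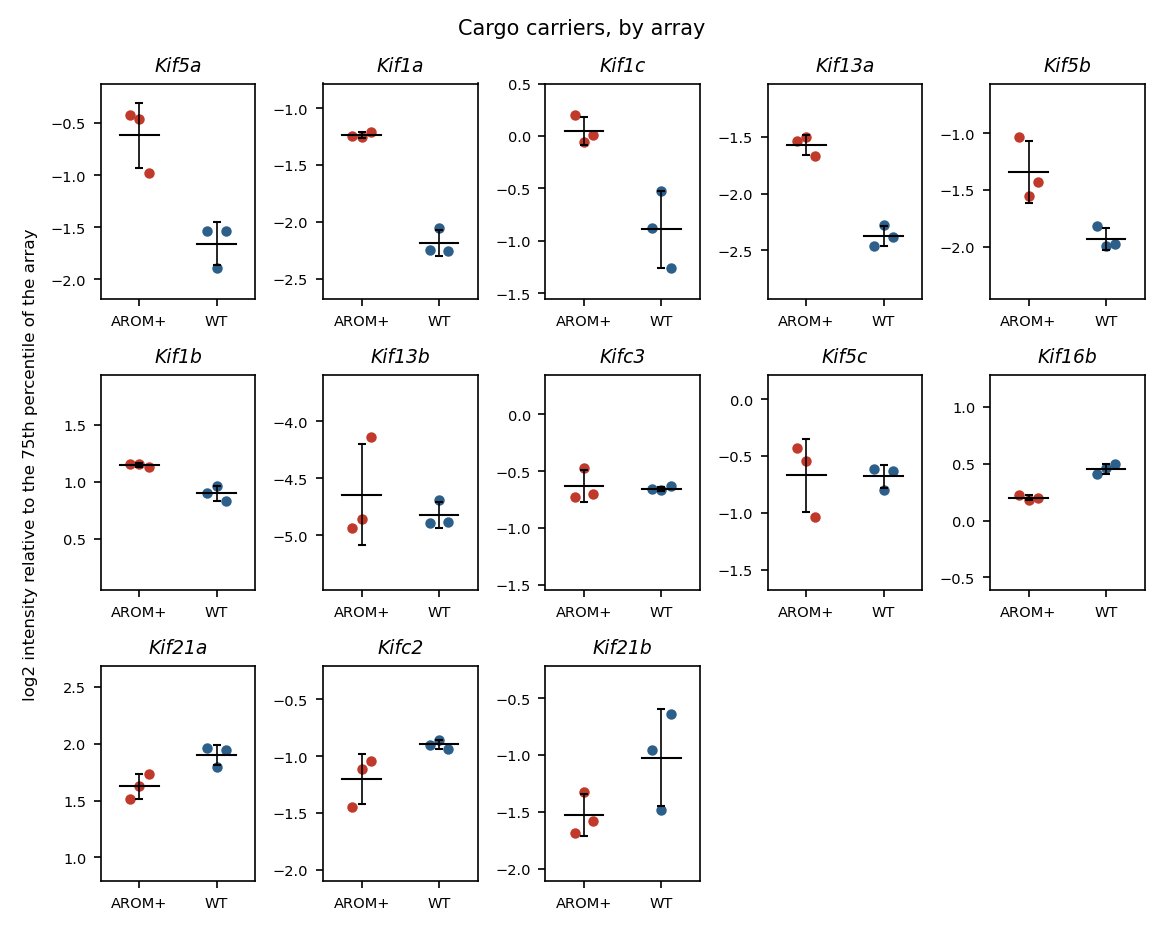
Log2 intensity above the 75th percentile of its array (vertical axis) for the 13 cargo carriers in each AROM+ (red) and WT (blue) testis; bars are the mean and SD of 3 arrays. Red points lie above blue points in Kif5a, Kif1a, Kif1c, Kif13a, Kif5b and Kif1b, overlap with them in Kif13b, Kifc3, Kif5c and Kif21b, and lie below them in Kif16b, Kif21a and Kifc2.

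The 4 genes outside these roles were Kif12, Kif4b, Kif26a and Kif26b. Kif12, known from epithelia of the kidney and liver, read −6.79, −6.46 and −7.05 in AROM+ testes, against −5.31, −5.31 and −5.73 in WT testes. Its probe was well above background on 1 of 3 AROM+ arrays and on 3 of 3 WT arrays, so it entered the test through the WT arrays. It was called lower (−1.32 ± 0.19, limma adjusted p = 0.00472), but the size of the difference rests on signal near background and was −0.59 with normexp background correction. The other 41 kinesin genes were well above background on all 6 arrays.

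Kif4b is annotated by RefSeq as Kif4-ps, a pseudogene copy of Kif4. Its probe read −0.26, 0.03 and −0.41 in AROM+ testes, against 0.27, 0.37 and 0.45 in WT testes (−0.58 ± 0.13, limma adjusted p = 0.0142), with no overlap. Without WT replicate 3 it was not called (−0.53, adjusted p = 0.0533). The log2 ratio of Kif4b to Kif4, also picked after the values were seen, was 0.39 to 1.12 in AROM+ testes and 1.41 to 1.72 in WT testes, and the probes of these near-identical sequences may share signal. Kif26b, a kinesin-11 that does not work as a motor, was called lower (−0.54 ± 0.17), but not without AROM+ replicate 1 (−0.52), AROM+ replicate 3 (−0.41), WT replicate 2 (−0.49) or WT replicate 3 (−0.49). Its relative Kif26a was not called (0.35 ± 0.20).

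By family, all 3 kinesin-6, all 3 kinesin-8 and both kinesin-9 genes were called lower, beside 31.4% of all genes. Kinesin-2 had 3 of 4 genes lower, kinesin-13 3 of 4 and kinesin-4 2 of 5, with 0 higher in each. The kinesin-4 count is near the share of all genes. Kinesin-1 had 2 of 3 genes higher and 0 lower, beside 14.5% of all genes called higher. Of the 4 kinesin-14 genes, which walk the other way along microtubules, 0 were called in either direction.

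There were 13 kinesin genes with more than 1 probe above background. Their probe calls come from a limma fit over all probes, not over genes. In it the brightest Kif1b probe was not called (limma adjusted p = 0.0534, beside 0.0466 in the fit over genes). In 5 of them (Kif2a, Kif2c, Kif3b, Kif6 and Kif9) every probe was called lower, and in 0 was every probe called higher. In the other 8 genes some probes were not called or, in Kif1a, the probes were called in opposite directions. Each of the 5 higher genes with several probes had at least 1 probe that was not called or was called lower, whereas Kif13a had a single probe.

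**Figure D4:**
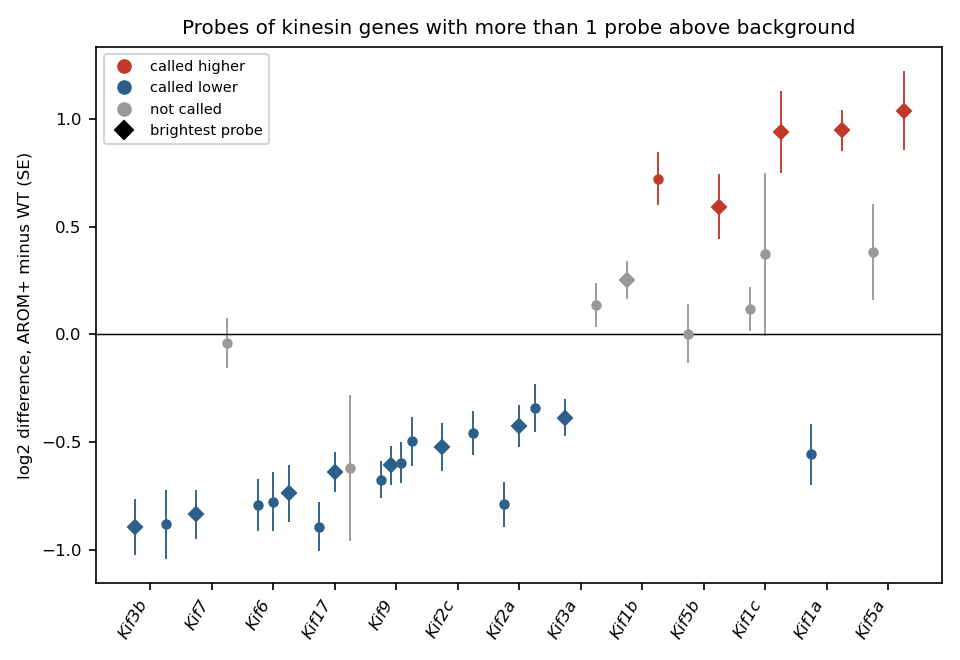
Log2 difference between AROM+ and WT testes (vertical axis; SE from limma fitted on probes, n = 3 each) for every probe above background of the 13 kinesin genes with several such probes; diamonds mark the brightest probe. The probes of Kif6, Kif9, Kif2c, Kif2a and Kif3b are all blue, the brightest probe of Kif1b is grey in this fit over probes (adjusted p = 0.0534), and those of Kif1a lie at 0.95 and −0.56.

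Partner genes of the cilium and spindle motors were also lower, in data where 31.4% of all genes were called lower and 14.5% higher. Of 19 intraflagellar transport genes, which encode the trains that kinesin-2 pulls and the dynein that brings them back, 14 were called lower and 0 higher (median −0.43). The largest falls were in Ift172 (−0.70 ± 0.09), Ift140 (−0.54 ± 0.15), Ift81 (−0.54 ± 0.09) and the dynein heavy chain Dync2h1 (−0.54 ± 0.12). The number lower was 8 without AROM+ replicate 1 or WT replicate 1, 7 without WT replicate 3, and 9 with quantile normalization, spike-in scaling or the replicate number as a block. In these settings 4967 to 7100 of all 28917 genes were called lower, against 9068 in the analysis reported here. Kifap3, the accessory subunit of the Kif3a and Kif3b motor, named here after its value was seen, was not called (−0.25 ± 0.09, limma adjusted p = 0.0636).

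Of 19 partners of the spindle motors 14 were called lower and 0 higher (median −0.44). Without WT replicate 3, 9 of them were lower, beside 4967 of all 28917 genes. Plk1, a kinase of mitosis and meiosis, was at −0.77 ± 0.09, the Aurora kinases Aurkc at −0.66 ± 0.13 and Aurkb at −0.57 ± 0.11, and the kinetochore protein Ndc80 at −0.50 ± 0.09. Of 17 kinesin light chains, adaptors and partners 3 were higher and 5 lower (median −0.21), close to the shares of 14.5% and 31.4% and the median of −0.19 over all genes. The mitochondrial adaptor Trak2 was at 0.89 ± 0.09, the microtubule-binding Mtus1 at 0.76 ± 0.14 and Arl8a, which links lysosomes to kinesins, at 0.56 ± 0.11, while Klc3, a light chain of spermatids, was at −0.59 ± 0.12. The number of adaptors lower was 3 without AROM+ replicate 1 or WT replicate 3.

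Markers of later germ cells were lower in the same testes, where 31.4% of all genes were called lower. All 10 round spermatid markers were called lower, and their summed level (linear, relative to the 75th percentile) was 67.8 to 73.5 in AROM+ and 91.0 to 96.8 in WT testes. The number lower was 6 without AROM+ replicate 1, 5 without WT replicate 1 and 4 without WT replicate 3 or with quantile normalization. In these settings 4967 to 6499 of all 28917 genes were called lower, against 9068 in the analysis reported here. Of 9 spermatocyte markers 6 were lower (summed level 49.0 to 55.2 in AROM+ and 65.4 to 67.2 in WT testes), and of 9 elongating spermatid markers 6 were lower (189 to 200.1 in AROM+ and 229 to 304 in WT testes). With quantile normalization 3 and 2 of these were lower. All of these markers were well above background on all arrays. They moved with the motors of the sperm tail and the spindle, and their part in those results was not tested.

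Of 9 spermatogonial markers 3 were higher and 1 lower (8.37 to 9.31 in AROM+ and 7.21 to 8.76 in WT testes, median difference 0.02), and 0 were lower without WT replicate 3. Ret, a spermatogonial receptor, was not well above background on any WT array, so it entered the test through the AROM+ arrays. With only probes above background on all 6 arrays, 2 of 8 spermatogonial markers were higher and 1 lower. The shares over all genes were 14.5% higher and 31.4% lower.

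Many markers of several somatic cell types were higher in the testes in which the 6 cargo carriers were higher. Of all genes, 14.5% were called higher and 31.4% lower. Of 11 Sertoli cell markers 6 were higher (summed level 50.2 to 52.0 in AROM+ and 30.7 to 37.6 in WT testes), and of 7 Leydig cell markers 4 were higher (33.7 to 47.7 in AROM+ and 18.9 to 34.9 in WT testes). Differences of single Leydig markers ranged from −1.08 to 3.72, and their summed levels overlapped between AROM+ and WT. Of 11 macrophage markers 10 were higher and 1 lower (40.3 to 69.5 in AROM+ and 14.7 to 20.8 in WT testes), and 0 were lower without AROM+ replicate 2, WT replicate 1 or WT replicate 2. Of 7 endothelial markers 6 were higher and 1 lower, with a median difference of 1.44 and a range of −0.39 to 1.96. Their summed levels were 2.47 to 3.26 in AROM+ and 2.20 to 2.50 in WT testes and also overlapped. A summed level depends most on its brightest probes, so it can differ from the median of single markers. These 4 lists were above background on all arrays.

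In the other somatic lists the calls higher were close to the share of 14.5% over all genes, of which 31.4% were called lower. Of 6 peritubular and smooth muscle markers 1 was higher (12.9 to 15.6 in AROM+ and 10.4 to 12.8 in WT testes), with 0 higher without AROM+ replicate 1 and 3 higher with quantile normalization. Their median difference was 0.31, and AROM+ values lay fully above WT values in 5 (beside 17.9% of all genes) and fully below in 0 (beside 41.1%). Of 6 T and B cell markers 1 was higher and 1 lower (0.980 to 1.79 in AROM+ and 0.686 to 0.826 in WT testes). Their median difference was 0.64, with AROM+ values fully above WT values in 2 (beside 17.9% of all genes) and fully below in 1 (beside 41.1%). The summed levels of neither list overlapped between AROM+ and WT. For these lymphocyte markers 3 were higher without AROM+ replicate 2, 0 were higher without WT replicate 3, and 0 were lower when any 1 array other than AROM+ replicate 2 was left out. The part of these cells in the cargo carrier results was not tested.

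**Figure D5:**
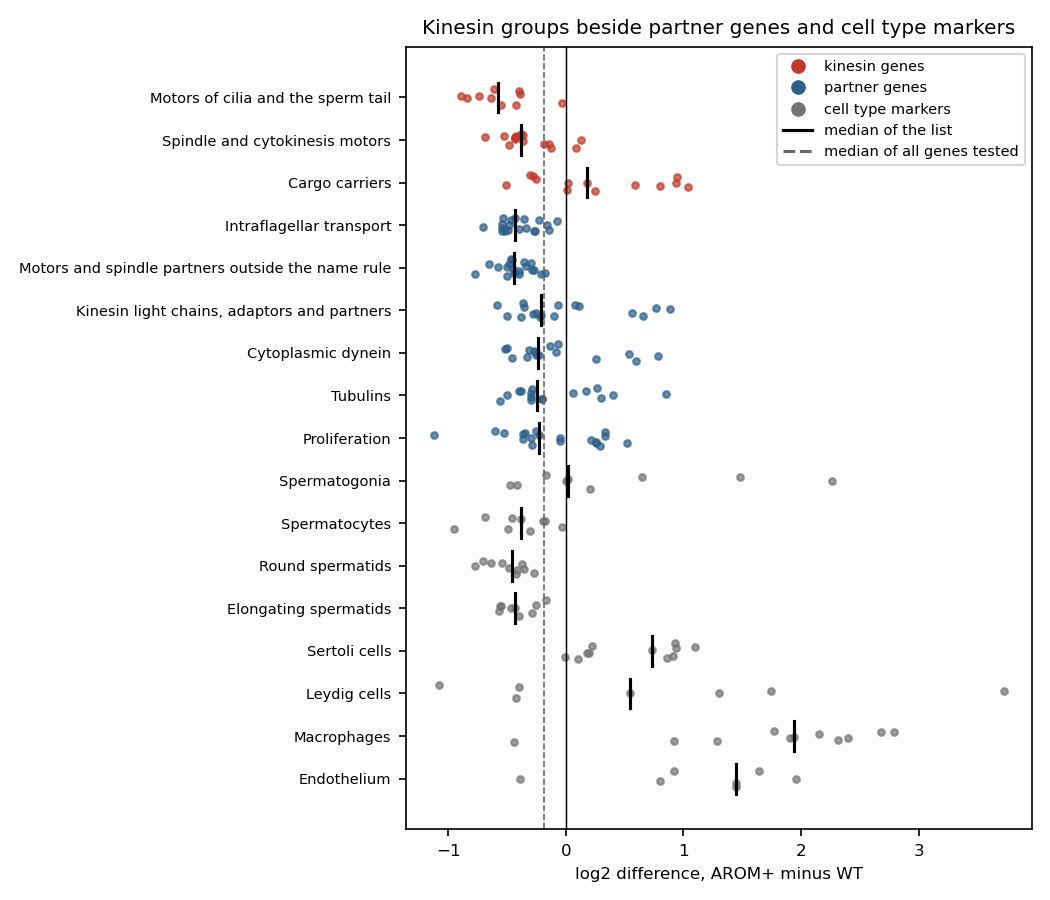
Log2 difference between AROM+ and WT testes (horizontal axis) for each gene of the kinesin role groups (red), of partner lists (blue) and of cell type markers (grey); black bars are list medians and the dashed line is the median of all genes at −0.19. The medians of the motors of cilia (−0.58) and of intraflagellar transport genes (−0.43) lie left of that line, and the medians of cargo carriers (0.18), Sertoli (0.74) and macrophage (1.94) markers lie right of it.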

How the data were processed

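The members were all probes that are not controls and whose GeneName fits the name rule, and the members and gene lists were chosen with earlier results of these data known. Spot intensities were deposited by the authors in the form that the Agilent Feature Extraction software writes. The file headers name its version 10.7.3.1, whereas the submitters' processing notes name 10.10. Per the file headers, the processed signal is an intensity from which the software had removed background. The authors also deposited a table of log2 values. Set against the scanner values, each of its columns follows the logged processed signals with 1 constant per array subtracted (slope 1.00), with no centring of genes. Its column medians were −3.36, −3.38 and −3.34 in AROM+ and −3.41, −3.40 and −3.38 in WT.

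From each array's 62976 spots, 3671 control spots and 123 to 192 spots with outlier flags were left out. Log2 of the processed signal minus the array's 75th percentile was averaged over spots of 1 probe. Genes entered the test where 1 group or both had the brightest probe well above background on each of 3 arrays. The comparison used lmFit and eBayes of limma 3.58.1 (R 4.3.3, two-sided). Its p-values were adjusted by Benjamini-Hochberg over 28917 genes, with 0.05 as the threshold. Intervals are 95% confidence intervals of the limma difference before adjustment. The procedure was tested on simulated data. Values on every array are given for the 8 largest called rises (6 were called) and the 8 largest called falls, for the brightest member of each role and for members with opposed probes. From each other list up to 4 called genes with the largest differences are named, and of the cell type marker lists only summed levels and counts are given. Probes are placed as in the files (NCBI37/mm9), and promoter sequences are from RefSeq (GRCm38.p6). The arrays were alike within groups (r across genes 0.988 to 0.992 in AROM+ and 0.994 to 0.996 in WT, and 0.961 to 0.983 between groups). Their number limits the precision.

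Other settings were normexp background correction (offset 50), quantile normalization, centring on the median of tested genes, spike-in scaling over 280 control spots, the authors' log2 values, dim probes kept, only probes above background on all 6 arrays, averaged probes per gene, naming through RefSeq, every probe as a feature, the replicate number as a block, and leaving out each array.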

Additional observations from a re-analysis of the deposited data

How the results depend on the processing

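Of the 28 called kinesin genes, 11 kept their call under all alternatives in which they were tested (17 at most): Kif13a and Kif5a higher, and Kif3b, Kif6, Kif7, Kif9, Kif12, Kif17, Kif18b, Kif24 and Kif27 lower. Kif12 entered the test only through the WT arrays, where it is high, so its kept call is no support for it. Kif12, Kif13a, Kif18b, Kif24 and Kif27 have 1 probe each, so averaging probes could not change their differences. No called gene changed direction. Counted over the 42 genes and all alternatives, 643 values stayed on their side of the threshold, 65 lost a call and 4 gained one. The 643 include values of the 14 genes not called, which had no call to lose, so all 65 losses fall on the 28 called genes. Quantile normalization left 14 genes lower and 6 higher, with Kif2a, Kif2c, Kif3a, Kif15, Kif16b, Kif20a, Kif23 and Kif26b no longer called. The mean of a gene's probes left 3 higher, and Kif1a (0.19), Kif1c (0.48) and Kif5b (0.30) missed the threshold. Leaving out 1 array gave 4 to 5 genes higher and 14 to 20 lower, with the fewest lower without WT replicate 3, and 12 called genes lost their call without at least 1 array. Spike-in scaling gave 4 higher and 17 lower, with Kif1b, Kif3a, Kif5b, Kif15, Kif16b, Kif18a and Kif26b not called. Kif12 was not tested where all 6 arrays had to be above background, nor Kif4b under that name where RefSeq named the genes; the other members were fitted under every alternative. Deviations of same-numbered arrays correlated at 0.05, −0.17 and 0.05 across genes, and not every array correlated best with its own number. These values show no pairing by replicate number, but 3 arrays per group are too few to exclude it. With the replicate number as a block 5 genes were higher and 19 lower, and Kif1b, Kif15, Kif16b and Kif23 were not called. Kif12 is the 1 member whose signal lay near background, on 2 of 3 AROM+ arrays. Why other calls moved between settings was not tested.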

Other observations

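Calls among dynein, tubulin and proliferation genes came in both directions, and are given here as values beside 14.5% higher and 31.4% lower over all genes. Of 16 cytoplasmic dynein and dynactin genes 3 were higher and 6 lower in AROM+ testes (median −0.24). The intermediate chain Dync1i1 was at 0.79 ± 0.11, the light chains Dynlt3 at 0.59 ± 0.13 and Dynlrb1 at 0.54 ± 0.10, and the dynactin subunit Dctn2 at −0.51 ± 0.08. The number of dynein genes lower was 2 without AROM+ replicate 1, WT replicate 1 or WT replicate 3 and 3 without AROM+ replicate 2. Of 16 tubulin genes 3 were higher and 6 lower (median −0.25), with Tubb2b at 0.85 ± 0.17, Tubb5 at 0.40 ± 0.12, Tubd1 at −0.56 ± 0.09 and Tubg2, of the microtubule-nucleating γ-tubulins, at −0.50 ± 0.10. Leaving out any 1 array other than WT replicate 2 left 1 tubulin gene higher and 2 to 4 lower.

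Of 19 proliferation genes 1 was higher and 7 were lower (median −0.23, near the median of −0.19 over all genes). The cell division phosphatase Cdc25c was at −1.12 ± 0.21 and the B-type cyclins Ccnb1 at −0.60 ± 0.10 and Ccnb2 at −0.52 ± 0.09, while Mcm4, of the DNA replication helicase, was at 0.52 ± 0.16. With quantile normalization 3 of these genes were higher and 3 lower. The number lower was 3 without AROM+ replicate 1, WT replicate 1 or WT replicate 3 and 4 without AROM+ replicate 2. The number higher was 0 without AROM+ replicate 2, WT replicate 1 or WT replicate 3.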
